A study of Homo sapiens with 8 samples.

Results

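The guides described here target the coding sequence of SETD1A between residues 900 and 1400 (this stretch and the windows within it are named by their bounds, the lower one not included). They were chosen by position alone: guides named for KMT2F, a synonym of SETD1A, whose number lay between 2701 and 4200. That number was read as a nucleotide of the coding sequence. The rule found 153 of the 628 SETD1A guides and of 5995 guides in the pool, and all 153 had at least 30 reads at day 0. They stood at 148 distinct positions, a median of 5 nucleotides apart.

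The pool, labelled sgKMT2pool, was carried by KPL-1 cells, a human breast cancer line with an inducible Cas9 (iCas9) that is switched on by doxycycline. It was counted in 1 library at day 0, whose genotype label is WT, and in 1 library at day 14, labelled as a knockout of functional domains. Both library names carry the doxycycline tag. The totals were 10145466 and 10255022 reads. With 1 library per day there was no replicate spread, so no difference given here has a test, and intervals over guides cover the spread between guides and not that between cultures.

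SETD1A is a histone methyltransferase that acts in a multi-subunit complex and methylates histone H3 at lysine 4. Its C-terminal SET domain carries the catalytic activity, the neighbouring N-SET part helps to assemble the complex, and an RNA recognition motif lies near the N-terminus. A central part called the FLOS domain was described in leukaemia cells as a non-catalytic part that binds cyclin K, the protein named in the title of the study. The residues described here lie between the middle of the protein and the N-SET and SET domains. In a tiling screen, a cut that shifts the reading frame can disrupt the protein from any coding position, while small in-frame changes matter most where the residues themselves are needed. Loss of a guide from the pool is therefore read along the protein, guide by guide.

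By day 14 most guides in residues 900 to 1400, 130 of 153 (85.0%, against 86.2% of all guides), stood below the median of the HGLibA guides. The median change was -0.95 log2 (95% order-statistic interval over 153 guides, -1.14 to -0.63), which is 0.517 times the level kept by the HGLibA guides. Change means the log2 ratio of CPM + 1 (a guide's reads scaled to a common library total), day 14 over day 0, minus the median of the 200 HGLibA guides, which are taken here as controls. A guide was called lower at -1 log2 or less and higher at 1 log2 or more. By that measure 75 of 153 guides were lower (49.0%, exact 95% interval 40.9% to 57.2%) and 0 were higher (exact 95% interval 0% to 2.38%). Over all 5991 guides with enough day 0 reads, 46.7% were lower and 0.351% higher, so the share of lower guides in these residues was near that of the pool as a whole, most of which targets genes of the same family.

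The depletion was graded rather than uniform. Of the members, 21 were at -2 log2 or less (13.7%, against 16.6% of all guides), 54 between -2 and -1, 23 between -1 and -0.5, 32 between -0.5 and 0, and 23 above 0. The HGLibA guides held 0 of 200 at -2 or less and 4 at -1 or less. Their SD was 0.46 log2, against 0.82 among the members. Below the 2.5th percentile of the HGLibA guides, at -0.86 log2, lay 79 members (51.6%), and none lay above the 97.5th percentile, at 0.88 log2. Over all guides these shares were 52.3% and 0.584%, so the members were close to the pool here too. Of the remaining SETD1A guides 68.2% lay below that lower percentile.

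Further sets of control guides frame these values. The 25 guides against PCNA, POLR2A, POLR2L, RPA3 and SF3B3, genes that dividing cells need for replication, transcription or splicing, had a median of -3.63 log2, and 24 of them were lower. The median of the SETD1A members came to 26.3% of that log2 value, and that of the remaining 475 SETD1A guides to 37.0%. The 5 guides against AAVS1, a locus often cut as a harmless control, went from 2061 to 1263, 1183 to 1194, 3378 to 6461, 1039 to 709 and 998 to 833 reads. Their changes ran from -1.46 to 0.18 log2 with a median of -1.01, so 3 of these 5 were themselves lower, and their range held the members' median. The size of the depletion therefore depends on which control guides it is measured from, and the order of the members does not, because centring moves every guide by the same amount.

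The remaining SETD1A guides were more depleted than those in residues 900 to 1400. Their median was -1.34 log2 (interval -1.42 to -1.22), and 300 of 475 were lower (63.2%; 58.6% to 67.5%). The members stood 0.39 log2 above them. Guides in residues 700 to 900, just before, had a median of -1.20 log2 (interval -1.41 to -0.89, 93 guides), and 51 were lower (54.8%, against 46.7% of all guides). Guides after residue 1400, over the N-SET and SET domains, had a median of -1.29 log2 (interval -1.46 to -1.06, 118 guides), and 75 were lower (63.6%). The intervals of the members and of each flanking part overlapped, while that of the members and that of all remaining SETD1A guides did not. Guides against the paralog SETD1B had a median of -0.25 log2 (interval -0.28 to -0.21, 744 guides). The medians were -1.43 log2 for KMT2D (2435 guides), -0.84 log2 for KMT2C (1331 guides) and -0.64 log2 for BOD1L1 (618 guides). Over all guides the median was -0.92 log2, close to that of the members.

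In windows of 100 residues, the lowest median was that of the first window and the highest that of the last. Residues 900 to 1000 had a median of -1.27 log2 (interval -1.45 to -0.87), with 22 of 34 guides lower. Residues 1000 to 1100 had a median of -0.95 log2 (interval -1.21 to -0.44), with 9 of 20 lower. In residues 1100 to 1200 the median was -0.61 log2 (interval -1.12 to -0.22), and 16 of 38 guides were lower. The median was lower again in residues 1200 to 1300, at -1.12 log2 (interval -1.68 to -0.56), where 22 of 39 guides were lower. Residues 1300 to 1400 had a median of -0.26 log2 (interval -1.17 to 0.021), with 6 of 22 lower. In order, the shares of lower guides were 64.7%, 45.0%, 42.1%, 56.4% and 27.3%, against 46.7% of all guides. The exact interval of each window's share held 46.7%. Against the 63.2% of the remaining SETD1A guides, the intervals of residues 1100 to 1200 (26.3% to 59.2%) and 1300 to 1400 (10.7% to 50.2%) lay below. Those of the other windows held it.

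Ranked from the most depleted, these windows took places 7, 16, 17, 12 and 18 among the 18 windows of 100 residues along SETD1A, the last of which held 6 guides. With these bounds, the 3 windows with the highest medians of the whole protein thus lay in residues 1000 to 1200 and 1300 to 1400. Their intervals were wide and overlapped those of most other windows, so this order is a description of the 2 libraries. The windows also differed in coverage: no guide lay between nucleotides 3049 and 3175 (residues 1017 to 1059) or between 4050 and 4164 (residues 1350 to 1388), gaps of 126 and 114 nucleotides.

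Windows of 50 residues differed in how alike their guides were. In residues 950 to 1000 all 14 guides were below 0, against 86.2% of all guides and 92.4% of the remaining SETD1A guides. Of these 14, 13 were lower (92.9%, exact interval 66.1% to 99.8%). The same share was 46.7% of all guides and 63.2% of the remaining SETD1A guides. This window had the lowest median and the largest share of lower guides of the 50-residue windows here, so it is an extreme among several. The median of its guides was -1.49 log2 (interval -1.88 to -1.20), with values from -2.03 to -0.89. Their SD was 0.33 log2, against 0.46 log2 for all HGLibA guides. The 61 HGLibA guides with 1531 to 2237 day 0 reads had an SD of 0.40 log2, and the median in this window was 1820.5 reads. In residues 900 to 950, just before, the median was -0.76 log2, 9 of 20 guides were lower, and the values ran from -2.36 to 0.40. These neighbouring 50-residue windows had similar lowest values and differed in how many guides stayed near the controls. In residues 1100 to 1150 the median was -0.33 log2 with 8 of 25 guides lower, and in residues 1150 to 1200 it was -1.04 log2 with 8 of 13 lower. In the other windows of 50 residues but the last, medians ran from -1.16 to -0.50 log2. Residues 1000 to 1050 held 5 guides, 1 of them lower, with a median of -0.50 log2. The median was -1.04 log2 in residues 1050 to 1100 (8 of 15 lower), -1.12 log2 in residues 1200 to 1250 (13 of 23 lower) and -1.16 log2 in residues 1250 to 1300 (9 of 16 lower). Residues 1300 to 1350 had a median of -0.53 log2 with 6 of 17 lower, and values from -2.73 to 0.41 log2. Residues 1350 to 1400 held 5 guides, none of them lower, from -0.34 to 0.19 log2. Apart from residues 950 to 1000, the shares of lower guides in these windows ran from 0% to 61.5%. Each of their exact intervals held the 46.7% of all guides. Those of residues 1100 to 1150, 1300 to 1350 and 1350 to 1400 lay below the 63.2% of the remaining SETD1A guides.

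The 10 most depleted guides were spread from residue 907 to residue 1340. The guide at nucleotide 3724 (residue 1242) went from 1696 reads at day 0 to 300 at day 14, a change of -3.22 log2 (exact 95% counting interval -3.44 to -3.08), or 9.29-fold lower than the HGLibA guides. At nucleotide 3979 (residue 1327) reads went from 1048 to 260, or -2.73 log2, within the window of 100 residues with the highest median. The guide at nucleotide 3844 (residue 1282) went from 1306 to 358 reads, or -2.59 log2. These 3 guides came from separate places in the C-terminal part of the stretch.

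The next ones were at nucleotide 3561 (residue 1187), from 2637 to 772 reads and -2.52 log2, and at nucleotide 3605 (residue 1202), from 3840 to 1134 reads and -2.51 log2. The guide at nucleotide 3443 (residue 1148) went from 1149 to 349 reads, or -2.45 log2. At nucleotide 2719 (residue 907) reads went from 1314 to 425, or -2.36 log2. All of these were under every one of the 200 HGLibA guides. The remaining 3 were at nucleotides 2826 (-2.33 log2), 3604 (-2.29 log2) and 4020 (residue 1340, -2.21 log2, from 1573 to 569 reads). The first 2 of these 3 each share a name with a second guide that was less depleted. Counting error was small beside these values, with a median interval width of 0.18 log2 over the members.

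The 8 guides with the highest change exceeded the HGLibA median by less than 0.5 log2. The highest, at nucleotide 3367 (residue 1123), went from 1846 to 4230 reads, or 0.43 log2 (counting interval 0.36 to 0.52). The guide at nucleotide 3432 (residue 1144) went from 2106 to 4820 reads, also 0.43 log2, and that at nucleotide 3913 (residue 1305) from 2859 to 6444 reads, or 0.41 log2. These values lay within the range of the control guides, of which 4 of 200 were at 1 log2 or more. The others were at nucleotides 2805 (0.40 log2), 3970 (0.39), 3238 (0.35), 3975 (0.34) and 3637 (0.30). Reads went up between the days in 70 of the 153 members although only 23 had a change of 0 or more, since the HGLibA guides themselves gained 0.74 log2 in CPM.

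Runs of 5 neighbouring guides marked the ends of the range. The lowest run lay from residue 1200 to residue 1202, both included, and had a median of -2.01 log2, place 26 from the lowest among the 624 runs of SETD1A. In it the guide at nucleotide 3599 went from 5185 to 2174 reads (-2.01 log2), that at 3603 from 1727 to 878 (-1.72), and that at 3605 from 3840 to 1134 (-2.51). Both guides at nucleotide 3604 also belonged to it, 1 going from 4615 to 1593 reads (-2.29 log2) and the other from 1991 to 2112 (-0.67 log2). So 4 of these 5 guides were lower and the fifth was not.

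The highest run lay from residue 1137 to residue 1146, with a median of 0.027 log2, place 620 of 624 from the lowest. Its guides went from 3016 to 4386 reads at nucleotide 3411 (-0.22 log2), from 2176 to 3348 at 3430 (-0.14), from 2902 to 5006 at 3431 (0.027), from 2106 to 4820 at 3432 (0.43) and from 2646 to 4896 at 3436 (0.13). All 5 stood near the control median. The guide at nucleotide 3443, among the 10 most depleted, lay 2 residues further on, at residue 1148. Running medians were at -0.5 log2 or less in 109 of 149 runs within residues 900 to 1400 (73.2%), against 85.9% of all SETD1A runs, which include these.

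Guides with the same or nearly the same number in their name often differed. Their exact cut sites were not known, because guide sequences were not analysed. At nucleotide 2826 (residue 942), 1 guide went from 1811 to 602 reads (-2.33 log2) and the other from 1845 to 3147 (0.010 log2), 2.34 log2 apart. At nucleotide 3604 the difference was 1.61 log2. The other 3 positions with a pair of guides differed less: by 0.49 log2 at nucleotide 2827, 0.44 at 2878 and 0.058 at 3589. Among 84 pairs of members 1 to 3 nucleotides apart, the median difference was 0.66 log2, and 28 pairs (33.3%) differed by at least 1 log2. Over all 11628 pairs of members the median difference was 0.82 log2, and 41.0% differed by at least 1. Near neighbours were thus only a little more alike than members taken at large. Examples singled out after their values were seen were the guides at nucleotides 3561 and 3564, at -2.52 and 0.047 log2 the widest of the 84 differences, and those at 3443 and 3445, at -2.45 and -0.14 log2.

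At each end of the stretch, guides inside and outside the boundary lay in a similar range. The 2 guides just before it, at nucleotides 2685 and 2698, were at -2.05 and -1.79 log2, and the first 2 within it, at 2703 and 2719, at -1.27 and -2.36 log2. The last 2 within it, at nucleotides 4172 and 4191, were at 0.19 and 0.021 log2, and the next 2, at 4230 and 4233, at -0.30 and -0.31 log2. These 4 guides were all within 0.31 log2 of the control median.

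By place in the codon, guides numbered at the first base had a median of -1.07 log2 (64 guides), at the second -1.19 log2 (37 guides) and at the third -0.61 log2 (52 guides), with overlapping intervals. In the remaining SETD1A guides the same medians were -1.43, -1.34 and -1.17 log2. The members had more reads at day 0 than the pool, with a median of 2121 against 1531, and 43.1% of them had more day 0 reads than 75% of the pool. Across members, Spearman's rho between day 0 reads and change was 0.10 (n = 153 guides of the same 2 libraries), and between position and change also 0.10. Above 2237 day 0 reads, the level that 75% of the pool did not exceed, the members had a median of -0.80 log2 (66 guides). The remaining SETD1A guides there had -1.34 log2 (158 guides). From 1531 to 2237 reads the members' median was also the higher (53 and 106 guides). From 1005.5 to 1531 reads the medians were -0.95 log2 (25 guides) and -1.35 log2 (126 guides). Up to 1005.5 reads they were close, at -1.17 log2 (9 guides) and -1.24 log2 (85 guides).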

How the data were processed

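Values are raw read counts of each guide, deposited by the authors without normalization; neither the labels nor the submitters' processing notes say which tool counted the guides. Guide and protein sequences were not analysed here. The last row repeats the column totals, without a guide name, so it carried 100% of the reads again and entered no step. The reads carry no molecular identifiers, so counting intervals cover counting error only. From the counts, CPM with a pseudocount of 1 gave the log2 change of guides with at least 30 day 0 reads (5991 of 5995), with Python 3.11.15, pandas 2.3.3 and scipy 1.17.1. The median of the HGLibA guides was subtracted. That these and the AAVS1 guides are controls, and that the number in a name is a coding nucleotide, rests on background knowledge and the range of the numbers. Residue is that number divided by 3, rounded up. Intervals of medians are order-statistic intervals and those of shares and single guides exact Clopper-Pearson intervals, at 95%. The intervals of single guides were computed from the reads without the pseudocount, so they are not centred on the change given. Guides named are the 10 lowest and 8 highest, the lowest and highest run of 5, and the 2 inside and outside each end; guides that share a position, and 2 pairs of neighbours, were also named. The members and these choices were made with earlier results of these data known. The steps were tested on simulated data in which only the members were shifted. That checked whether their median was recovered, and not the choice of control guides or a pool depleted as widely as this one. Alternatives were the pseudocount, the day 0 minimum, the centring, shared names, the fold and the windows. The expression table was not used here.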

Additional observations from a re-analysis of the deposited data

How the results depend on the processing

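The centring decided most values, since it moves all guides together. With no centring the members' median was -0.21 log2, 28 of 153 were lower (18.3%, against 22.6% of all guides) and 8 higher (378 of 5991 of all guides), and the medians of the 5 windows of 100 residues, in order, were -0.53, -0.21, 0.13, -0.38 and 0.48. Centred on all guides, these values were -0.036 log2, 21 lower (13.7%, against 18.4% of all guides) and 18 higher (644 of 5991), and -0.36, -0.037, 0.31, -0.21 and 0.66. At a fold of 2 log2, 21 members were lower, against 16.6% of all guides. The other 79 of 96 values under the alternatives stayed within their interval, or for counts within 1.5 times. Part of these 79 could not move, so their number does not measure robustness. All 153 members already passed the day 0 minimum, and dropping it changed none of the values. The difference from the remaining SETD1A guides is unaffected by centring. No paired analysis was possible because each day has 1 library and no result comes from a test. SETD1A has no name with a comma, so keeping such names changed nothing.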
